A study of Homo sapiens with 24 samples.

Results

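SU-DHL-4 is an established human line from a diffuse large B cell lymphoma of germinal centre type, and here its transcriptome was compared between cells cultured with CART19 cells and cells cultured with UTD cells, both under DMSO. All genes of the deposited count table were taken, and the compared libraries were 3 with CART19 cells and 3 with UTD cells, 6 of the 24 libraries of the series. The series crosses 2 lymphoma lines, SU-DHL-4 and OCI-Ly18, with DMSO or tazemetostat at 500 nM, and with UTD or CART19 cells. In both compared groups GFP-positive SU-DHL-4 cells were kept in DMSO for 72 h, then held with the added cells for 48 h with DMSO still present, and live GFP-positive cells were sorted for total RNA. Tazemetostat blocks EZH2, which methylates histone H3, and neither compared group received it. The labels do not spell out UTD, and the ratio of added cells to tumour cells and the donors of those cells are not stated in the labels. The RNA therefore comes from tumour cells that were still viable at the sort, and cells that had died by then are not represented. The title of the series gives the question as the effect of CART19 on gene expression of the lines.

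CART19 cells are T cells carrying a chimeric antigen receptor (CAR). As background, T cells that engage a target release interferon-gamma, which binds its receptor (IFNGR1 and IFNGR2), activates the kinases JAK1 and JAK2, and drives transcription from GAS elements in promoters. IRF1, like the ISGF3 complex that holds STAT2 and IRF9, acts through ISRE elements. Genes under these elements include the MHC class I chains and their peptide supply, guanylate binding proteins, chemokines of the CXCR3 axis and feedback inhibitors such as SOCS1. T cells also kill with perforin, granzymes and ligands of death receptors, and target cells carry inhibitors of each route.

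The promoters of 10 genes are shown because the results turn on these genes and because their windows differ in the interferon elements they hold. Each is a RefSeq window of 300 bases on GRCh38.p14, from 250 bases before to 50 bases after the start, written 5′ to 3′ on the strand of the gene. Capitals mark matches to ISRE (GAAANNGAAA, or TTTCNNTTTC on the other strand) and GAS (TTCNNNGAA, the same on both strands). The first 6 are the genes of the interferon lists with the largest fitted increase that had a window. IRF1, TAP1, HLA-B and CD274 were added after their values were seen. NLRC5 is not in the table of windows used here.
GBP4 (chr1:89198893-89199192, minus strand): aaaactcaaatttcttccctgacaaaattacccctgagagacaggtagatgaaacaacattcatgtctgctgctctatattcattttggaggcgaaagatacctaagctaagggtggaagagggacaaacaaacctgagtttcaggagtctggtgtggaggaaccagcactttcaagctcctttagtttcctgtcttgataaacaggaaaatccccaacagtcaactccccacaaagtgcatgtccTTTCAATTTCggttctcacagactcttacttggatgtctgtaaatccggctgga
GBP1 (chr1:89065159-89065458, minus strand): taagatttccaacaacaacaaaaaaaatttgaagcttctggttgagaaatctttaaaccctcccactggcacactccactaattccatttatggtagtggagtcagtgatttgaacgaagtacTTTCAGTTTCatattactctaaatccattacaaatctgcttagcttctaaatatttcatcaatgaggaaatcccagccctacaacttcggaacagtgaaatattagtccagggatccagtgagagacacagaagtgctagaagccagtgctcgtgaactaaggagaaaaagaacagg
IFIT5 (chr10:89414318-89414617, plus strand): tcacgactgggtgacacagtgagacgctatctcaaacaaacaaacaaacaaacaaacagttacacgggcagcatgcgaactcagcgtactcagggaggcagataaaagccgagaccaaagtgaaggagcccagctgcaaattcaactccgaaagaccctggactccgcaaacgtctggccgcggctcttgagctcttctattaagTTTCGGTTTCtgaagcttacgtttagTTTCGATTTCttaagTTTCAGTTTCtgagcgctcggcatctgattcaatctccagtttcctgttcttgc
XAF1 (chr17:6755197-6755496, plus strand): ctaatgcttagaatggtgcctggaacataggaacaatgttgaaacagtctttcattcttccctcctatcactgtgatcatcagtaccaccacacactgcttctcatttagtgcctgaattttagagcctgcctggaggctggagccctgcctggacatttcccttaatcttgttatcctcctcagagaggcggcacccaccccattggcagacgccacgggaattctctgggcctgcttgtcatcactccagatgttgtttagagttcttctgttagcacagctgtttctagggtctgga
IFI44L (chr1:78620198-78620497, plus strand): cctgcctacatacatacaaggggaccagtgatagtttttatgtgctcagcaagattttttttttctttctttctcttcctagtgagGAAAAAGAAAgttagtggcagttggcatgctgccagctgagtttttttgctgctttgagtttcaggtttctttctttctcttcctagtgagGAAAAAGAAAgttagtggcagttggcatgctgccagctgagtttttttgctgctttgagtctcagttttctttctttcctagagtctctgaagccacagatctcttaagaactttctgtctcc
IFIT3 (chr10:89327747-89328046, plus strand): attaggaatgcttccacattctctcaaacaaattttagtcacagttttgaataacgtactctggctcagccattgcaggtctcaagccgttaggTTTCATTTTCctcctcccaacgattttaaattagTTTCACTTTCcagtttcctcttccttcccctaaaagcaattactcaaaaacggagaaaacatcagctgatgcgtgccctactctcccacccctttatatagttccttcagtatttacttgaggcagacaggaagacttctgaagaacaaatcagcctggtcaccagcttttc
IRF1 (chr5:132490724-132491023, minus strand): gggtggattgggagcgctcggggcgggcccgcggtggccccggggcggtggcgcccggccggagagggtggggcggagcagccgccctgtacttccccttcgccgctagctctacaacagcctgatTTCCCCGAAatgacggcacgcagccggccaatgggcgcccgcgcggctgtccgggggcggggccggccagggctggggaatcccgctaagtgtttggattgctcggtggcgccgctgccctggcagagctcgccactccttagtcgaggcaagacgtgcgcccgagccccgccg
TAP1 (chr6:32853655-32853954, minus strand): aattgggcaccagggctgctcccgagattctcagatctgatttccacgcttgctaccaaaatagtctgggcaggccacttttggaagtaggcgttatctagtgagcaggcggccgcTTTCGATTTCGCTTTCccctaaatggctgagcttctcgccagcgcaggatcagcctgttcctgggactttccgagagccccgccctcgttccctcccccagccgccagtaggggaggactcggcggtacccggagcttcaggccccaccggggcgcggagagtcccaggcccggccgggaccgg
HLA-B (chr6:31357130-31357429, minus strand): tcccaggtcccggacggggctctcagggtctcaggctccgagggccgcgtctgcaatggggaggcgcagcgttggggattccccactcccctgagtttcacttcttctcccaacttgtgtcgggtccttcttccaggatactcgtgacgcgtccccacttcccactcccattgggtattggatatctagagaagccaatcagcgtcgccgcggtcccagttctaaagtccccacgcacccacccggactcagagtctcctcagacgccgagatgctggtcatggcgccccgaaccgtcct
CD274 (chr9:5450292-5450591, plus strand): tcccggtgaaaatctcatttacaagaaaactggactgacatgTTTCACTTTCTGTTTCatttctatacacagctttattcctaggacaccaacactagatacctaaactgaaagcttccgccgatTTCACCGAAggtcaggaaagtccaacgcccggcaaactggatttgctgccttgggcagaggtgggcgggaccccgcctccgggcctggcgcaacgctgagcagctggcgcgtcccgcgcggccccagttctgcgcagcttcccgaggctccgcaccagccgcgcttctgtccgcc

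Of these 10 windows, 7 hold at least 1 ISRE and 2 hold a GAS. The GBP4 match begins 4 bases before the start, and the IFIT5 window holds 3 matches, at 45, 19 and 4 bases before it. IFIT3 has matches at 156 and 122 bases, IFI44L at 164 and 73 bases, and GBP1 at 127 bases before the start. In TAP1 a pair of overlapping matches begins 134 and 128 bases before the start, and in IRF1 the single match is a GAS at 124 bases. CD274 holds overlapping ISRE matches at 208 and 202 bases and a GAS at 125 bases. XAF1 and HLA-B hold neither, which says only that these letters are not in these windows. Of all 35116 windows available, 3.57% hold an ISRE and 7.66% a GAS. Windows could be matched for 9673 of the 14861 genes tested, of which 2.98% hold an ISRE and 6.37% a GAS. Among the genes that rose with CART19 cells, 83 of 520 with a window (16%) hold an ISRE, and among those that rose by at least 1 log2 unit, 53 of 159 (33.3%). Among the genes that fell, 6 of 363 (1.65%) hold an ISRE. The shares with a GAS are 10.4%, 14.5% and 4.41% in the same order. A match is a description of the letters and not a bound site.

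The 6 libraries held 15163772 to 18335178 counts each. Values are given as CPM (the count of a gene over the count of its library, times 1000000), scaled by TMM factors of 0.972 to 1.03 over the 12 SU-DHL-4 libraries. A ± after a CPM value is the SD over 3 libraries, and a ± after a log2 fold change is its standard error (SE). Most T cell markers were at or near 0 in the sorted cells, but LCK, TRAC and CD247 were not. Of 25 T cell markers, 11 had no count in any of the 6 libraries (CD2, CD3G, CD4, CD7, CD8A, CD8B, CTLA4, ICOS, TRBC1, TRGC1 and TRGC2). The whole list summed to 254 to 261 CPM with UTD cells and 281 to 284 CPM with CART19 cells, ranges that do not overlap, and most of it was LCK, which rose by 0.17 ± 0.052 on the log2 scale (adjusted p = 0.0317). Leaving out any DMSO library but UTD replicate 2, or tazemetostat UTD replicate 1 or 3, ended that call (adjusted p up to 0.166). Without LCK, TRAC and CD247, which stood at 202, 39.8 and 10.6 CPM with UTD cells, the list summed to 5.76 to 7.65 CPM with UTD cells and 3.8 to 5.6 CPM with CART19 cells. The 17 effector products of T and NK cells, without TNF, summed to 1.12 to 1.24 CPM with UTD cells and to 2.68 to 3.59 CPM with CART19 cells. These ranges do not overlap, and GNLY, GZMA, GZMH, GZMK and IL2 had no count. The 9 NK cell markers summed to 0.683 to 2.20 CPM with UTD cells and 0.664 to 1.68 CPM with CART19 cells, and the 10 monocyte and macrophage markers to 0 to 1.02 and 0.499 to 0.952 CPM. The 10 B cell markers summed to 4400 to 4450 CPM and 4530 to 4580 CPM. Mitochondrial transcripts took 6.98%, 7.80% and 7.42% of counts with UTD cells and 6.57%, 6.71% and 6.82% with CART19 cells, groups that do not overlap, and the part of this in the results was not tested.

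CART19 cells were followed by a response in SU-DHL-4 that was larger upward than downward. By edgeR's quasi-likelihood test, 1158 of 14861 genes (7.79%) passed an adjusted p of 0.05, 686 of them higher (4.62%) and 472 lower (3.18%) with CART19 cells. Increases reached further: 230 genes rose by at least 1 log2 unit and 122 by at least 2, where 45 and 12 fell as far. The median log2 fold change was 0.606 among genes that rose, -0.324 among those that fell and -0.00266 over all genes tested. In summed level the rising genes gained 20500 CPM and the falling genes lost 9110 CPM. The replicates of the groups did not overlap for 1134 of the 1158 called genes, against 3487 (23.5%) of all genes tested. With 3 libraries per group, passing the test favours groups without overlap, so this is no separate support. Without UTD replicate 2 the number that fell was 259, while the number that rose stayed between 530 and 835 over all libraries left out in turn. Replicates are separate samples by their labels, but nothing says that they came from separate cultures, so p-values measure the spread between these libraries, which may be technical. In such bulk RNA a change in all cells cannot be told apart from a larger change in some of them.

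**Figure D1:**
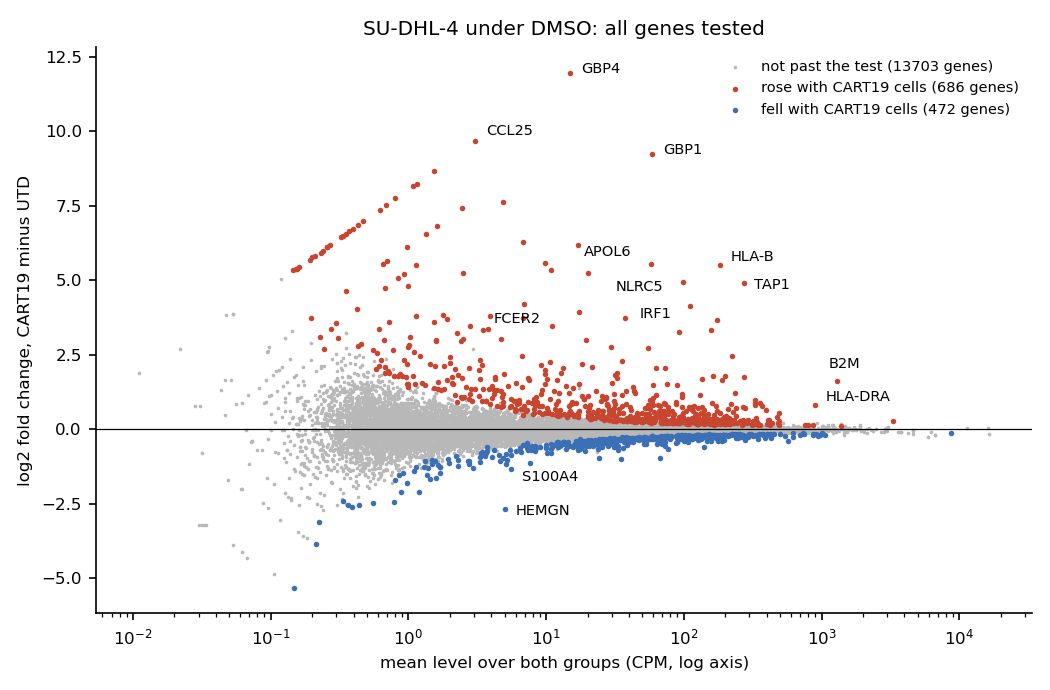
Mean CPM over the 6 libraries (log axis) against the log2 fold change, CART19 minus UTD, for the 14861 genes tested, coloured by call. Increases reach further than decreases, and the diagonal streak at the upper left is made of genes with no count in the UTD libraries, whose fitted fold change has no lower anchor.

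Among the 15 protein coding genes with the largest fitted increase at 5 CPM or more was GBP4, a guanylate binding protein of interferon-treated cells. It had 0, 0 and 0 CPM in the UTD libraries and 31.8, 27.9 and 30.5 CPM in the CART19 libraries. The UTD libraries held no GBP4 count against 1468 with CART19 cells, so it was at least 486-fold higher, taking 3 counts over the group as the floor. CCL25, a chemokine known from thymus and small intestine that attracts CCR9-positive lymphocytes, had 0, 0 and 0 CPM in the UTD libraries and 6.77, 6.16 and 5.48 CPM in the CART19 libraries, at least 99.2-fold higher against the same floor. Altogether 27 genes, all protein coding, rose from no UTD count, and 20 more from 1 to 3 counts. A gene without a UTD count can only rise, so the direction of the 27 was fixed in advance. Genes without a CART19 count were not tallied in the same way, so these numbers do not compare the directions. The others of the 15 were GBP1, SAMD9L, LGALS3BP, PARP14, APOL6, HLA-B, APOL3, PARP9, NLRC5, TAP1, NMI, IRF1 and DTX3L. LGALS3BP, a secreted glycoprotein that binds galectins, had 0.0621, 0.88 and 0.452 CPM in the UTD libraries and 32.6, 35.6 and 32.4 CPM in the CART19 libraries (log2 fold change 6.19 ± 0.24, adjusted p = 3.25e-18). Every CART19 library stood above every UTD library for each of these 15, which the rule that picked them required.

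Genes downstream of the interferon-gamma receptor rose, and the receptor chains themselves did not pass the test. Of 12 tested genes of the receptor, its kinases, the STATs and their inhibitors, 5 rose and the rest did not pass (median log2 fold change 0.16). The share called was 41.7%, against 7.79% of all genes tested. STAT2, a part of ISGF3, rose from 38.8 ± 1.43 to 111 ± 3.52 CPM (log2 fold change 1.52 ± 0.064, adjusted p = 1.53e-24), and STAT3, better known from IL-6 and IL-10 signalling, from 31.6 ± 2.46 to 88.7 ± 1.56 CPM (log2 fold change 1.49 ± 0.073). JAK2 had 11.8, 14.8 and 15.4 CPM in the UTD libraries and 27, 23.4 and 21.9 CPM in the CART19 libraries, higher in every CART19 library (log2 fold change 0.78 ± 0.12, adjusted p = 6.32e-06). SOCS1, the feedback inhibitor of JAK kinases, had 12.8, 13 and 10.7 CPM in the UTD libraries and 64.5, 55 and 58.9 CPM in the CART19 libraries, again without overlap (log2 fold change 2.29 ± 0.095, adjusted p = 1.03e-24). The receptor chains were at 33 and 27.6 CPM for IFNGR1 (log2 fold change -0.26 ± 0.1, adjusted p = 0.115) and at 35.4 and 32.5 CPM for IFNGR2 (log2 fold change -0.12 ± 0.099, adjusted p = 0.58), and neither passed. JAK1, at 57.4 and 55.6 CPM, did not pass either (adjusted p = 0.832).

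Interferon regulatory factors, the transcription factors that read ISRE elements, rose in 7 of 11 tested genes (median log2 fold change 0.69). The share called was 63.6%, against 7.79% of all genes tested. IRF1 (chr5:132481609-132490798) had 13.6, 8.53 and 13.1 CPM in the UTD libraries and 209, 211 and 209.5 CPM in the CART19 libraries. The CART19 libraries lie within a few CPM of each other, all above the UTD libraries (log2 fold change 4.15 ± 0.12, adjusted p = 9.16e-15). IRF2, an antagonist of IRF1 at shared elements, rose from 13.3 to 32.7 CPM (log2 fold change 1.29 ± 0.1, adjusted p = 4.09e-14). IRF7, the amplifier of type I interferon production, rose from 5.1 to 14.6 CPM (log2 fold change 1.51 ± 0.17), and IRF9, the DNA-binding part of ISGF3, from 2.13 to 7.73 CPM (log2 fold change 1.85 ± 0.26). IRF8, a factor of germinal centre B cells already at 254 CPM with UTD cells, moved little (log2 fold change 0.27 ± 0.047, adjusted p = 2.93e-05). IRF4, which is needed for the exit from the germinal centre to plasma cells, went from 1 count over the UTD libraries to 68 counts over the CART19 libraries, a ratio of 67.5-fold, with a 95% counting interval of 11.7 to 2704 and an adjusted p of 7.55e-05.

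MHC class I, the complex that shows cytosolic peptides to CD8 T cells, rose in its chains and its supply of peptides. Of 7 tested class I chain genes 6 rose (median log2 fold change 1.77), MICA being the exception. The share called was 85.7%, against 7.79% of all genes tested. HLA-B had 7.2, 8.06 and 8.24 CPM in the UTD libraries and 349.5, 375 and 359 CPM in the CART19 libraries. The CART19 libraries lie 46.1-fold above the UTD libraries (log2 fold change 5.53 ± 0.072, adjusted p = 1.12e-45). HLA-C had 12.8, 18.4 and 12.8 CPM in the UTD libraries and 100.2, 91.8 and 96.5 CPM in the CART19 libraries, also without overlap (log2 fold change 2.73 ± 0.092, adjusted p = 3.64e-26). The non-classical HLA-E rose from 124 to 424 CPM (log2 fold change 1.77 ± 0.051, adjusted p = 3.61e-31). B2M, the light chain shared by all of these, had 635, 602 and 657 CPM in the UTD libraries and 1926, 1963 and 1967 CPM in the CART19 libraries (log2 fold change 1.63 ± 0.04, adjusted p = 4.89e-34). Per kb of annotated gene length, the mean level ± SD with UTD and with CART19 cells was 2.57 ± 0.183 and 118 ± 4.28 CPM for HLA-B and 5.84 ± 1.28 and 38.4 ± 1.67 CPM for HLA-C. On that scale HLA-B was lower than HLA-C with UTD cells and higher with CART19 cells, while B2M stood above both at 104 ± 4.56 and 321 ± 3.73 CPM. HLA genes are alike in sequence, and the annotated span of HLA-B (chr6:31269491-31357188) contains part of HLA-C (chr6:31268749-31272130), so their counts may share reads.

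NLRC5, the transactivator of class I genes, rose with them, and the class II transactivator CIITA rose less. NLRC5 (chr16:56989485-57083531) had 7.26, 6.37 and 5.03 CPM in the UTD libraries and 179, 205 and 184 CPM in the CART19 libraries (log2 fold change 4.94 ± 0.09, adjusted p = 1.88e-37). CIITA had 108, 119 and 99 CPM in the UTD libraries and 178, 175 and 165 CPM in the CART19 libraries (log2 fold change 0.67 ± 0.058, adjusted p = 6.02e-13). Both pairs of groups are without overlap, with NLRC5 starting far lower. The other 7 tested transactivator genes, the RFX and NFY subunits and CREB1, did not pass, with log2 fold changes of -0.16 to 0.11.

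Of 16 genes of the class I peptide supply 14 rose (median log2 fold change 1.16), CANX and NPEPPS being the exceptions. The share called was 87.5%, against 7.79% of all genes tested. TAP1, a subunit of the peptide transporter, had 17.4, 18.6 and 16.5 CPM in the UTD libraries and 535, 522 and 525 CPM in the CART19 libraries (log2 fold change 4.92 ± 0.061, adjusted p = 1.96e-46). Its partner TAP2 started higher and rose less, from 142 ± 8.37 to 331 ± 2.29 CPM (log2 fold change 1.22 ± 0.052, adjusted p = 2.64e-24). The immunoproteasome subunit PSMB9 had 19.5, 15.9 and 16.2 CPM in the UTD libraries and 163, 170.0 and 169 CPM in the CART19 libraries (log2 fold change 3.28 ± 0.08, adjusted p = 2.46e-34). The proteasome activators PSME1 and PSME2 rose from 90.8 to 289.5 CPM (log2 fold change 1.67 ± 0.053) and from 88.2 to 309 CPM (log2 fold change 1.81 ± 0.058). PSMB8, the second of the inducible subunits, rose by 1.71 ± 0.059 on the log2 scale. The aminopeptidase ERAP2, which trims peptides in the endoplasmic reticulum, rose by 1.20 ± 0.1, the loading chaperone tapasin (TAPBP) by 0.58 ± 0.049 and its relative TAPBPL by 1.11 ± 0.12. The annotated TAP1 gene (chr6:32845209-32853978) lies inside the span of PSMB9 (chr6:32844136-32859585) on the other strand, and no source used here gives the strand setting of the counting. Reads of the pair cannot be told apart without it.

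**Figure D2:**
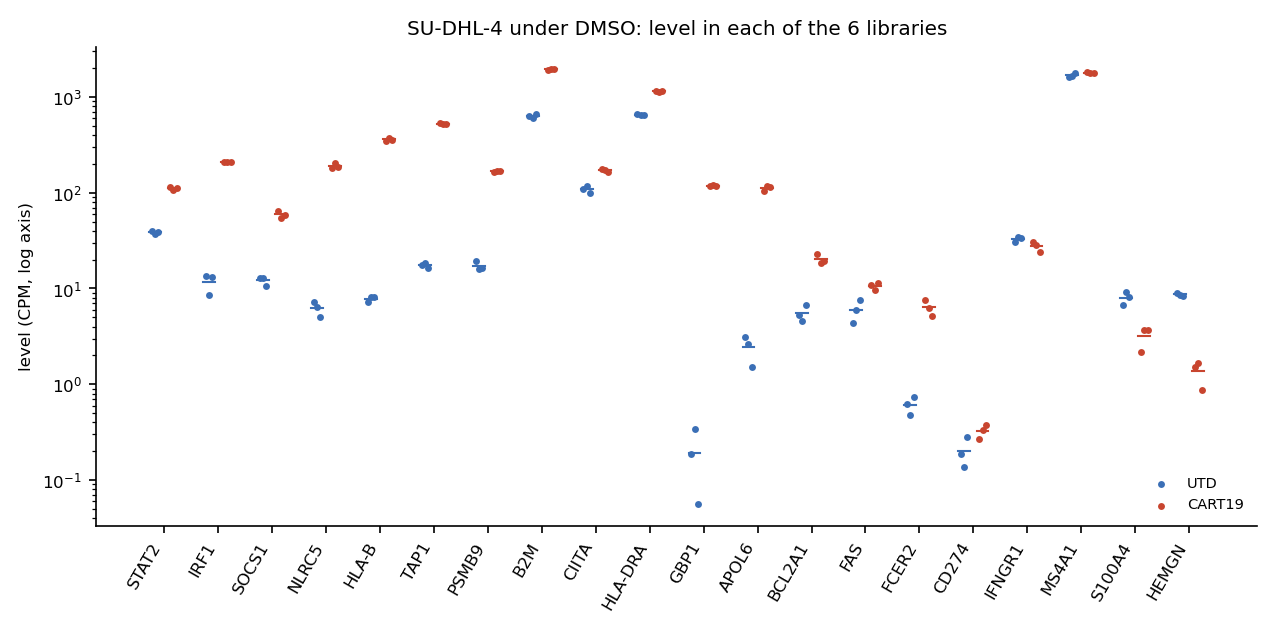
CPM (log axis) in each of the 6 libraries for 20 genes, UTD and CART19 libraries side by side, bars marking group means. IRF1, HLA-B, TAP1 and NLRC5 show tight groups set wide apart, while IFNGR1 and MS4A1 did not pass the test.

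MHC class II genes, which show peptides to CD4 T cells and are already high in B cells, rose by less. Of 15 tested class II and processing genes 12 rose (median log2 fold change 0.75), a share of 80% against 7.79% called of all genes tested. HLA-DRA, the alpha chain of HLA-DR, had 655, 640.1 and 653 CPM in the UTD libraries and 1140.0, 1118 and 1164 CPM in the CART19 libraries (log2 fold change 0.81 ± 0.04, adjusted p = 1.04e-21). HLA-DRB1 rose from 231 to 427 CPM (log2 fold change 0.89 ± 0.045), HLA-DQB1 from 239.5 to 421 CPM (0.81 ± 0.049), and HLA-DPB1 from 61.1 to 115 CPM (0.91 ± 0.079). HLA-DMA and HLA-DMB, the chaperone that loads class II molecules, rose by 0.75 ± 0.065 and 0.80 ± 0.071. HLA-DOB, part of the inhibitor of that chaperone, was at 21.4 and 26.2 CPM and did not pass (adjusted p = 0.0792). The invariant chain CD74, among the highest genes of these cells at 2957 CPM, rose by 0.29 ± 0.037. The thiol reductase IFI30, known for induction by interferon-gamma in other cells, was at 5.24 and 5.45 CPM and did not pass (adjusted p = 0.934), nor did the endopeptidase LGMN.

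The class II genes, TAP1, TAP2, PSMB8 and PSMB9 lie together on chromosome 6, in a stretch of 647.4 kb from HLA-DRA to HLA-DPB1 (chr6:32439842-33087201). Of its 20 genes in the table that were looked at, 16 were tested and 14 rose, the others being HLA-DOB and BRD2, a bromodomain protein. Along the stretch the increases peaked in the middle, where TAP1, PSMB9, PSMB8 and TAP2 rose by 4.92, 3.28, 1.71 and 1.22, and the class II genes on either side by 0.60 (HLA-DOA) to 0.98 (HLA-DRB5).

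**Figure D3:**
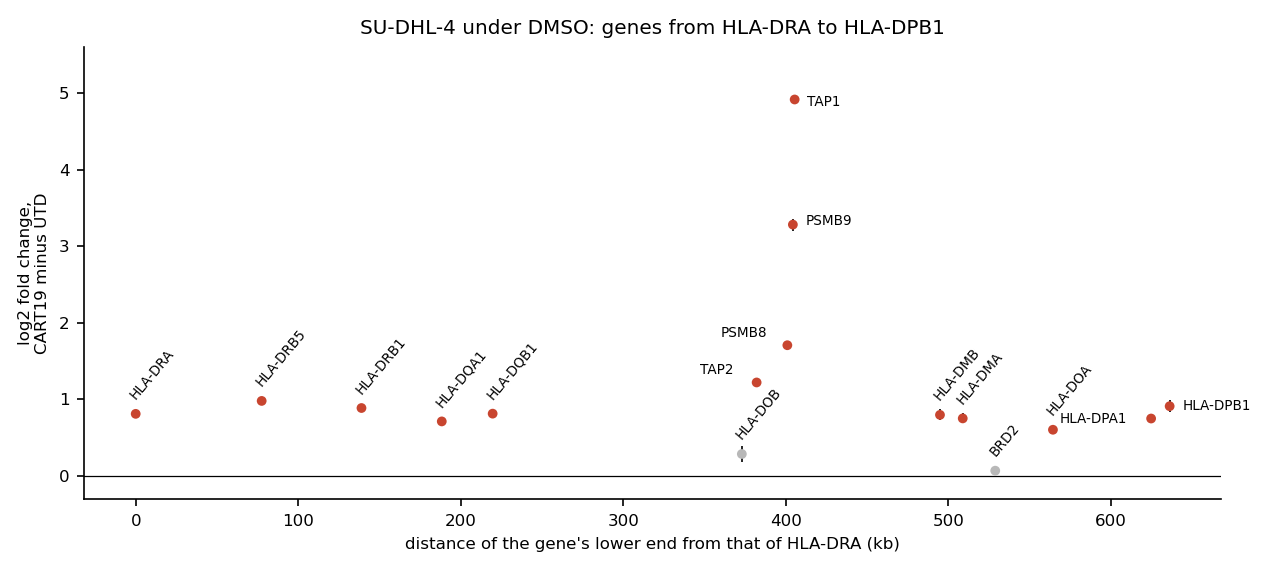
Log2 fold change, CART19 minus UTD, with its SE against distance in kb from the start of HLA-DRA, for the tested genes up to HLA-DPB1. TAP1 and PSMB9 stand above the rest at 4.92 and 3.28, and the class II genes lie between 0.60 and 0.98 apart from HLA-DOB at 0.29.

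Of 35 tested genes of the type I interferon response 34 passed upward, the exception being IFITM2 (adjusted p = 0.275). The share called was 97.1%, against 7.79% of all genes tested. The median log2 fold change was 2.22, and 2.22 with genes lacking UTD counts set at their bound. Of the 35, 7 had no UTD count and could only rise. The list holds 40 genes, and those too low in every group were not tested. The best measured was UBE2L6, the conjugating enzyme for ISG15, with 27.9, 28.2 and 29.2 CPM in the UTD libraries and 295, 282 and 287 CPM in the CART19 libraries (log2 fold change 3.34 ± 0.06, adjusted p = 6.66e-40). ISG15 itself rose from 62.6 ± 6.67 to 133 ± 3.89 CPM (log2 fold change 1.09 ± 0.071), and UBA7, the activating enzyme of that pathway, from 1.84 to 20.4 CPM (3.46 ± 0.17). EPSTI1 had 4.09, 6.03 and 5.53 CPM in the UTD libraries and 68.4, 68.2 and 71.5 CPM in the CART19 libraries (log2 fold change 3.73 ± 0.12, adjusted p = 1.39e-27). Many others were not seen without CART19 cells: IFIT5, XAF1, IFI44L and IFIT3 had no count in any UTD library and 151, 111, 105 and 79 counts over the CART19 libraries, at least 49.96-, 36.7-, 34.7- and 26.1-fold higher. SAMD9L, a growth-restricting antiviral factor, went from 2 to 474 counts, a ratio of 235-fold, with a 95% counting interval of 64.8 to 1948. MX1, a dynamin-like antiviral GTPase, went from 2 to 86 counts, 42.7-fold, with a 95% counting interval of 11.5 to 358. Even so the absolute level of MX1 and the IFIT genes stayed at or under 3.08 CPM with CART19 cells.

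Guanylate binding proteins, GTPases that attack membranes of intracellular pathogens, include large increases. All 5 tested members of that list, with RNF213, rose (median log2 fold change 6.0, or 3.71 with the genes lacking UTD counts at their bound). Of these 5, 2 had no UTD count and could only rise, and the list holds 9 genes. GBP1 had 0.186, 0.339 and 0.0565 CPM in the UTD libraries and 117, 119 and 118 CPM in the CART19 libraries (log2 fold change 9.26 ± 0.17, adjusted p = 9.97e-40). GBP3 rose from 0.262 to 3.58 CPM (log2 fold change 3.71 ± 0.49, adjusted p = 1.9e-07), and GBP2 was at least 7.61-fold higher with 23 counts against none. GBP5, with 16 counts against none, was too low to be tested. GBP genes are alike in sequence and lie side by side on chromosome 1, so that low members may receive reads of high ones.

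The PARP9 and DTX3L pair, a mono-ADP-ribosyltransferase and its ubiquitin ligase partner, is transcribed from one shared start region. PARP9 had 0.993, 1.22 and 0.903 CPM in the UTD libraries and 39, 40.4 and 38.8 CPM in the CART19 libraries (log2 fold change 5.25 ± 0.16, adjusted p = 1.12e-29), and DTX3L had 1.92, 2.78 and 1.69 CPM in the UTD libraries and 32.1, 34.3 and 31.1 CPM in the CART19 libraries (log2 fold change 3.94 ± 0.16, adjusted p = 4.86e-25). Both were low with UTD cells, with 50 and 102 counts over the group, and higher in every CART19 library. PARP14, from the same stretch of chromosome 3, rose by 5.6 ± 0.3, and NMI, a partner of STAT proteins, by 4.21 ± 0.25. All 7 tested members of this list rose (median log2 fold change 3.94). Apolipoprotein L genes, whose APOL1 product lyses trypanosomes, rose in all 5 tested members (median 5.35, or 5.08 with bounds). APOL4 had no UTD count and could only rise. APOL6 had 3.1, 2.64 and 1.52 CPM in the UTD libraries and 104, 119 and 116 CPM in the CART19 libraries (log2 fold change 5.56 ± 0.13, adjusted p = 3.42e-32), and APOL2 rose from 4.38 to 34.6 CPM (log2 fold change 2.99 ± 0.14, adjusted p = 3.04e-22). The rise of APOL4, the lowest of the list, was no longer called without CART19 replicate 1 (adjusted p = 0.0823). These genes are near-identical in parts, so reads may be shared among them.

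Among 8 tested nucleic acid sensors 3 rose: AIM2, a sensor of cytosolic DNA, from 24 ± 0.479 to 101 ± 3.47 CPM (log2 fold change 2.08 ± 0.075, adjusted p = 2.87e-27), and the RNA sensors DDX58 and IFIH1 by 1.32 ± 0.24 and 3.03 ± 0.53. CGAS and the adaptor MAVS did not pass (adjusted p = 0.751 and 0.872). Of 7 tested chemokine and tryptophan genes 3 rose, namely WARS, CXCL10 and CXCL9. The share called was 42.9% here and 37.5% among the sensors, against 7.79% of all genes tested. WARS, the tryptophanyl-tRNA synthetase induced by interferon-gamma, had 70.0, 71.4 and 63.8 CPM in the UTD libraries and 372, 381 and 378 CPM in the CART19 libraries (log2 fold change 2.46 ± 0.055, adjusted p = 9.87e-36). CXCL10 and CXCL9, which attract CXCR3-positive T cells, had no UTD count and 61 and 39 counts with CART19 cells, at least 20.2- and 12.9-fold higher, with means of 1.24 and 0.786 CPM. The tryptophan-degrading enzyme IDO1 had no count in any of the 6 libraries, which limits it to 3 counts over each group. None of the 4 tested complement genes passed edgeR's test. At an unadjusted p under 0.05 the number was 1, and DESeq2 and limma voom called 0.

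**Figure D4:**
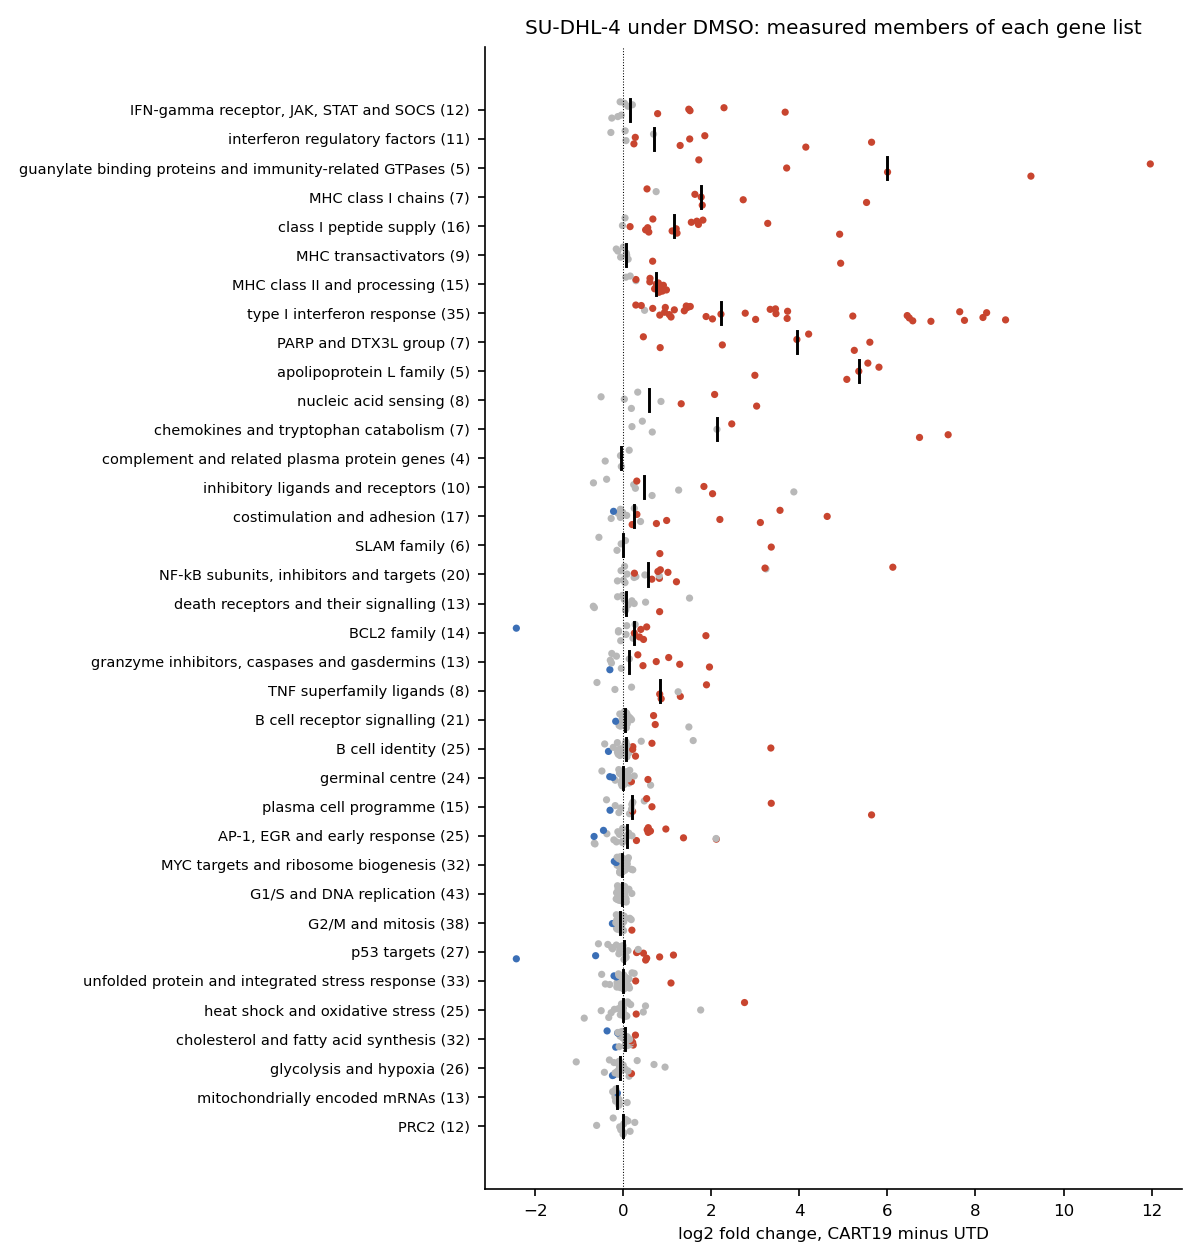
Log2 fold change, CART19 minus UTD, of each tested member of the 36 gene lists, coloured by call, with a black tick at each list's median. The medians of the guanylate binding protein, apolipoprotein L and PARP lists lie furthest to the right, and those of the cell cycle, MYC, PRC2 and stress lists lie near 0.

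Ligands and receptors that restrain or help T cells rose in part. Of 10 tested inhibitory genes 3 rose (median log2 fold change 0.48), a share of 30% against 7.79% called of all genes tested. TNFRSF14, the ligand of BTLA and CD160 that is often lost in germinal centre lymphomas, had 14.1, 13.5 and 14.1 CPM in the UTD libraries and 47.4, 48.5 and 52.5 CPM in the CART19 libraries (log2 fold change 1.83 ± 0.094, adjusted p = 4.09e-21). LGALS9, a ligand of TIM-3, rose from 0.854 to 3.48 CPM (log2 fold change 2.03 ± 0.28, adjusted p = 2.4e-07). The call of CD47, the signal that holds off macrophages, was lost without CART19 replicate 3 (adjusted p = 0.0652). CD274, which encodes PD-L1, had 0.186, 0.135 and 0.282 CPM in the UTD libraries and 0.266, 0.336 and 0.374 CPM in the CART19 libraries, or 10 and 16 counts in all. The groups overlap and the gene did not pass (log2 fold change 0.66 ± 0.88, adjusted p = 0.784), at a depth where a change of this size is not detectable.

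Of 17 tested costimulation and adhesion genes 8 rose and 1 fell (median log2 fold change 0.25). The share called was 52.9%, and 33.3% in the SLAM family below, against 7.79% of all genes tested. ICAM1, the ligand through which LFA-1 anchors T cells, had 7.69, 5.62 and 6.27 CPM in the UTD libraries and 25.1, 32.2 and 32.4 CPM in the CART19 libraries (log2 fold change 2.19 ± 0.15, adjusted p = 1.27e-16). CD83, a stabiliser of surface MHC class II and CD86, rose from 38 ± 3.39 to 75.4 ± 5.81 CPM (log2 fold change 0.99 ± 0.078, adjusted p = 4.02e-14), and CD40, the receptor for T cell help, from 30.3 ± 2.11 to 51 ± 0.0754 CPM (log2 fold change 0.75 ± 0.083, adjusted p = 9.14e-10). CD58, the ligand of CD2 on T cells that lymphomas often lose, went from 1 to 34 counts over the libraries, a ratio of 33.7-fold, with a 95% counting interval of 5.66 to 1372. It stayed at 0.687 CPM, and its call was lost without UTD replicate 3 (adjusted p = 0.0502). CD70, the ligand of CD27, rose from 0.205 to 1.85 CPM (log2 fold change 3.12 ± 0.48, adjusted p = 3.02e-06). The integrin chain ITGB1 fell from 118 to 101 CPM (log2 fold change -0.22 ± 0.057, adjusted p = 0.00858). In the SLAM family of lymphocyte contact receptors 2 of 6 tested genes rose: SLAMF1 had 44.9, 49.3 and 45.8 CPM in the UTD libraries and 81.9, 82.6 and 84.6 CPM in the CART19 libraries (log2 fold change 0.83 ± 0.072, adjusted p = 6.67e-13), and SLAMF7 rose from 0.102 to 1.13 CPM (log2 fold change 3.36 ± 0.6, adjusted p = 4.93e-05).

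NF-kB genes rose in 9 of 20 tested members (median log2 fold change 0.57). The share called was 45%, against 7.79% of all genes tested. The largest fitted increases were those of TNFAIP2, which went from 1 to 96 counts, a ratio of 95.3-fold, with a 95% counting interval of 16.7 to 3802, and EBI3, a cytokine subunit shared by IL-27 and IL-35, from 0.429 ± 0.163 to 4.11 ± 2.12 CPM (log2 fold change 3.22 ± 0.45, adjusted p = 7.21e-07). NFKB2, the precursor of the alternative pathway, had 28.7, 29 and 22.2 CPM in the UTD libraries and 60.5, 59.4 and 64.3 CPM in the CART19 libraries (log2 fold change 1.21 ± 0.098, adjusted p = 9.9e-14). RELB, its partner, rose by 0.65 ± 0.12, the inhibitor NFKBIA by 0.82 ± 0.11, BCL3 by 0.84 ± 0.1 and TRAF1 by 0.79 ± 0.1. BIRC3, an inhibitor of death receptor signalling, rose from 12.5 to 25.4 CPM (log2 fold change 1.02 ± 0.12, adjusted p = 2.8e-09). RELA, REL and NFKB1 did not pass (log2 fold changes 0.0044, -0.13 and 0.041). Among 8 tested TNF family ligands 4 rose (50% called). LTA had 21.5, 20.4 and 24.2 CPM in the UTD libraries and 50.2, 56.4 and 56.1 CPM in the CART19 libraries (log2 fold change 1.3 ± 0.098, adjusted p = 7.41e-15), TNF had 39.2, 43.9 and 41.4 CPM in the UTD libraries and 76, 75.1 and 75.3 CPM in the CART19 libraries (log2 fold change 0.86 ± 0.075, adjusted p = 7.85e-13), and LTB rose by 0.83 ± 0.084. All 3 are made by B cells as well as T cells.

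Of 13 tested genes of the death receptors and their signalling 1 was called (median log2 fold change 0.06), a share of 7.69% near the 7.79% of all genes tested. FAS, the receptor of FAS ligand, had 4.41, 6.03 and 7.51 CPM in the UTD libraries and 10.9, 9.69 and 11.3 CPM in the CART19 libraries (log2 fold change 0.83 ± 0.17, adjusted p = 0.000555). The TRAIL receptor TNFRSF10B was at 43.6 and 45.4 CPM (adjusted p = 0.797), and CASP8, the initiator caspase of this route, at 30.2 and 35.9 CPM (adjusted p = 0.0895). In the BCL2 family 6 of 14 tested genes rose and 1 fell (50% called), and both survival and death members were among those that rose. BCL2A1, a survival protein, had 5.27, 4.54 and 6.66 CPM in the UTD libraries and 23.1, 18.6 and 19.3 CPM in the CART19 libraries (log2 fold change 1.88 ± 0.14, adjusted p = 1.44e-14), and the survival protein MCL1 rose by 0.37 ± 0.044. The death-promoting PMAIP1 (NOXA) rose from 68.8 ± 3.44 to 99.7 ± 1.99 CPM (log2 fold change 0.53 ± 0.063, adjusted p = 6.2e-09), and BMF and BAK1 rose by 0.40 ± 0.068 and 0.25 ± 0.077. BBC3 (PUMA) had 1.86, 1.15 and 1.02 CPM in the UTD libraries and 0.133, 0.336 and 0.249 CPM in the CART19 libraries (log2 fold change -2.43 ± 0.62, adjusted p = 0.00667), a call that was lost without UTD replicate 1 (adjusted p = 0.0532) and without CART19 replicate 1 (adjusted p = 0.0527). BCL2 itself, at 120.3 and 116 CPM, did not pass (adjusted p = 0.707).

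Of 13 tested caspases, gasdermins and granzyme inhibitors 6 rose and 1 fell, a share of 53.8% against 7.79% called of all genes tested. GSDMD, the pore protein of pyroptosis, had 18, 19 and 16 CPM in the UTD libraries and 38, 33.3 and 37 CPM in the CART19 libraries (log2 fold change 1.03 ± 0.11, adjusted p = 1.01e-10), and CASP4, a caspase that cleaves it, rose from 6.64 to 16.2 CPM (log2 fold change 1.28 ± 0.16, adjusted p = 4.78e-08). SERPINB9, the inhibitor of granzyme B, was the member that fell, with 261, 282 and 271 CPM in the UTD libraries and 229.6, 218 and 212 CPM in the CART19 libraries (log2 fold change -0.30 ± 0.05, adjusted p = 1.25e-05). The rise of CASP1 was not called without UTD replicate 2, UTD replicate 3 or CART19 replicate 2 (adjusted p = 0.144, 0.127 and 0.0961).

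Messages of T cell effectors were found at the edge of detection in the sorted cells. IFNG had 0, 0 and 0 CPM in the UTD libraries and 0.266, 0.392 and 0.312 CPM in the CART19 libraries, 16 counts in all against none, at least 5.29-fold higher. Leaving out any UTD library, or CART19 replicate 2 or 3, ended its call (adjusted p up to 0.0901). GZMB, which encodes granzyme B, had 0, 0 and 0 CPM in the UTD libraries and 1.26, 0 and 0.125 CPM in the CART19 libraries. Nearly all of its 21 counts came from CART19 replicate 1, the groups overlap, and without that library the adjusted p was 0.549. The source of these few reads was not tested.

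Of the genes of B cell receptor signalling 14.3% were called, and of those of B cell identity 24%, against 7.79% of all genes tested. MS4A1, which encodes CD20, was at 1684 ± 81.8 and 1786 ± 21.3 CPM (adjusted p = 0.283), CD22 at a log2 fold change of -0.094 ± 0.039 (adjusted p = 0.155) and CD79B, a signalling chain of the B cell receptor, at 250.3 and 252 CPM (adjusted p = 0.97). In the list of B cell receptor signalling 2 of 21 tested genes rose and 1 fell (median log2 fold change 0.04). CD72, an inhibitory coreceptor, rose from 40.9 ± 2.95 to 67.6 ± 3.25 CPM (log2 fold change 0.73 ± 0.076, adjusted p = 2.43e-10), and the kinase PRKCB from 8.94 ± 2.78 to 14.3 ± 1.21 CPM (log2 fold change 0.69 ± 0.13, adjusted p = 0.000295). Of 25 B cell identity genes 5 rose and 1 fell. FCER2, which encodes the activation marker CD23, had 0.621, 0.474 and 0.734 CPM in the UTD libraries and 7.63, 6.33 and 5.17 CPM in the CART19 libraries. It went from near the floor to a clear level in all 3 CART19 libraries (log2 fold change 3.35 ± 0.26, adjusted p = 1.34e-14). TNFRSF17, which encodes BCMA, had 24.8, 21.3 and 23.8 CPM in the UTD libraries and 38.7, 36.7 and 34.5 CPM in the CART19 libraries (log2 fold change 0.65 ± 0.095, adjusted p = 1.04e-06), and PAX5 rose by 0.28 ± 0.047. IKZF1, which encodes Ikaros, fell from 383 ± 33.3 to 304 ± 12.2 CPM (log2 fold change -0.33 ± 0.054, adjusted p = 1.68e-05).

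In the germinal centre list 2 of 24 tested genes rose and 2 fell (median log2 fold change -0.0027). The share called was 16.7%, against 7.79% of all genes tested. LMO2, a marker of that stage, had 154, 142 and 148 CPM in the UTD libraries and 216, 228 and 211 CPM in the CART19 libraries (log2 fold change 0.56 ± 0.05, adjusted p = 1.71e-12), and MME, which encodes CD10, fell from 148 to 119.6 CPM (log2 fold change -0.31 ± 0.057, adjusted p = 9.78e-05). BCL6, the repressor that defines the stage, was at 377 and 370.0 CPM and did not pass (adjusted p = 0.842). In the plasma cell list 5 of 15 tested genes rose and 1 fell (40% called). Its risen members include IRF4, SLAMF7 and TNFRSF17, and CD38 was the member that fell (log2 fold change -0.30 ± 0.06). PRDM1, which encodes the plasma cell factor BLIMP1, had 3 counts over the CART19 libraries and none with UTD cells, and was not tested. None of the 12 PRC2 genes passed edgeR's test. At an unadjusted p under 0.05 the number was 1, and DESeq2 and limma voom called 0. EZH2, the catalytic subunit and the target of tazemetostat, was at 199.8 ± 2.88 and 199 ± 1.25 CPM (adjusted p = 0.99).

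The share of genes called was 0% for G1/S and DNA replication, 5.26% for G2/M, 9.38% for MYC targets, 11.5% for glycolysis and hypoxia and 21.9% for cholesterol and fatty acid synthesis, against 7.79% of all genes tested. Of 43 genes of the G1/S transition and DNA replication none passed edgeR's test. At an unadjusted p under 0.05 there were 1 higher and 6 lower, DESeq2 called 3 lower, and limma voom called 1 lower. In the G2/M list 1 of 38 rose and 1 fell, and the median was -0.08. CENPF, a kinetochore protein, was the member that fell, from 286 ± 19.5 to 241 ± 7.02 CPM (log2 fold change -0.25 ± 0.052, adjusted p = 0.000782). MKI67 was at 822 and 763 CPM (adjusted p = 0.146) and MYC at 536 ± 13.7 and 512 ± 5.09 CPM (adjusted p = 0.446). Of 32 MYC targets 3 fell, by 0.16 to 0.20, among them the polyamine enzyme ODC1 (log2 fold change -0.16 ± 0.039, adjusted p = 0.00589) and CAD, an enzyme of pyrimidine synthesis (-0.20 ± 0.051). Leaving out CART19 replicate 2 ended the call of ODC1 (adjusted p = 0.069), and leaving out UTD replicate 2 or CART19 replicate 1 that of CAD (adjusted p = 0.154 and 0.0568). Of 26 glycolysis and hypoxia genes 1 rose and 2 fell, the latter GPI (-0.21 ± 0.042) and HK2 (-0.24 ± 0.053). Of 32 genes of cholesterol and fatty acid synthesis 4 rose and 3 fell, with HMGCS1, an early enzyme of the cholesterol route, up by 0.23 ± 0.051 and the desaturase SCD down (log2 fold change -0.13 ± 0.04). With single libraries left out in turn, 2 to 6 of this list rose and 0 to 3 fell, so its share is not stable. Among 13 mitochondrially encoded mRNAs 1 passed, MT-CO3, with a log2 fold change of -0.13 ± 0.037. That is 7.69%, near the share of all genes tested. Of the 13, 12 had a negative value (median -0.14), beside the lower mitochondrial share given above. All 13 count toward that same share, so their signs are not separate results. MT-CO3 was not called without UTD replicate 3 or CART19 replicate 1 (adjusted p = 0.0795 and 0.156).

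Called genes made up 40% of the AP-1, EGR and early response list and 33.3% of the p53 targets, against 7.79% of all genes tested. The shares were nearer to that for the unfolded protein and integrated stress responses (12.1%) and for heat shock and oxidative stress (8%). Of 25 AP-1, EGR and early response genes 8 rose and 2 fell, among the former MAFF (log2 fold change 1.37 ± 0.39, adjusted p = 0.0166) and KLF6 (log2 fold change 0.62 ± 0.096, adjusted p = 4.02e-06). MAFF was not called without UTD replicate 2 or CART19 replicate 2 (adjusted p = 0.161 and 0.0923). The kinase PIM2 rose from 21.1 ± 2.13 to 41.3 ± 2.85 CPM (log2 fold change 0.97 ± 0.096, adjusted p = 4.36e-11), and BATF, an AP-1 factor of activated lymphocytes, from 0.675 to 2.96 CPM (log2 fold change 2.11 ± 0.39, adjusted p = 9.38e-05). EGR1, an immediate target of B cell receptor signalling, had 27.2, 28.2 and 31.9 CPM in the UTD libraries and 18.5, 19.9 and 16.8 CPM in the CART19 libraries, lower in every CART19 library (log2 fold change -0.66 ± 0.099, adjusted p = 1.84e-06). Of 27 p53 targets 7 rose and 2 fell, with GADD45B first at 1.14 ± 0.091. GADD45B is also a target of NF-kB. MDM2, a standard reporter of p53, was at 115 and 116 CPM (adjusted p = 0.925), and the call of CDKN1A, which encodes the p53 target p21, was lost in 9 of the alternatives, at an adjusted p of up to 0.362 without UTD replicate 3. Of 25 heat shock and oxidative stress genes 2 rose: MT2A, a metallothionein, had 5.89, 7.92 and 8.98 CPM in the UTD libraries and 53.1, 49 and 52.4 CPM in the CART19 libraries (log2 fold change 2.75 ± 0.13, adjusted p = 1.49e-18), and the chaperone DNAJA1 rose by 0.29 ± 0.046. Of 33 genes of the unfolded protein and integrated stress responses 2 rose and 2 fell, and PPP1R15A, the phosphatase subunit that ends the stress arrest of translation, rose most, from 17.5 ± 1.18 to 37.1 ± 1.04 CPM (log2 fold change 1.08 ± 0.1, adjusted p = 1.26e-11).

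The decreases were smaller than the increases. The 12 largest were likewise picked from called protein coding genes at 5 CPM or more in the higher group whose groups do not overlap. Of the 45 called genes that fell by at least 1 log2 unit, 7 had 5 CPM or more with UTD cells. Genes under that level, such as BBC3 at -2.43, could fall further than most of the 12. HEMGN, a nuclear protein of blood progenitors, had 9.06, 8.6 and 8.36 CPM in the UTD libraries and 1.53, 1.68 and 0.873 CPM in the CART19 libraries. All 3 CART19 libraries lie far under the UTD libraries, 6.32-fold lower (log2 fold change -2.66 ± 0.28, adjusted p = 2.55e-10). S100A4, a calcium-binding protein tied to cell motility, had 6.7, 9.14 and 8.19 CPM in the UTD libraries and 2.19, 3.7 and 3.68 CPM in the CART19 libraries, also without overlap (log2 fold change -1.31 ± 0.18, adjusted p = 3.63e-07). SPP1, which encodes the secreted osteopontin, had 47.6, 44.2 and 47.6 CPM in the UTD libraries and 21.1, 25.8 and 22.8 CPM in the CART19 libraries (log2 fold change -1.0 ± 0.09, adjusted p = 2.12e-12), and ABCA12, a lipid transporter, had 84.8, 91.1 and 92.3 CPM in the UTD libraries and 44.8, 44.3 and 48.2 CPM in the CART19 libraries (log2 fold change -0.97 ± 0.07, adjusted p = 1.41e-15). Others of the 12 largest decreases were OPRL1, the nociceptin receptor, at a log2 fold change of -1.14 ± 0.23, and ZEB2, a transcription factor of lymphocyte and myeloid differentiation, at -1.05 ± 0.22. PI16 was at -1.01 ± 0.19, NREP at -0.95 ± 0.1, and PMEPA1, an inhibitor of TGF-beta signalling, at -0.87 ± 0.17. RUNX2, the osteoblast factor, was at -0.94 ± 0.23 in the fit of the 12 SU-DHL-4 libraries, and its call was lost in the fit of all 24 libraries (adjusted p = 0.315). GDF7, a TGF-beta family ligand, was at -0.97 ± 0.23 and was not called without UTD replicate 1 (adjusted p = 0.0733).

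The same comparison can be set beside SU-DHL-4 under tazemetostat and beside OCI-Ly18 under DMSO, which use other UTD libraries. Of the 686 genes that rose under DMSO, 453 (66.0%) also rose under tazemetostat, where they made up 45.8% of the rising genes, and of the 472 that fell 258 (54.7%) fell there too, 22.1% of the falling genes. In OCI-Ly18 the numbers were 365 of 642 tested in both lines (56.9%, and 38.9% of the rising genes there) and 89 of 438 (20.3% and 14.1%). For comparison, 6.66% and 7.86% of all genes rose and fell under tazemetostat, and 6.27% and 4.75% in OCI-Ly18. The test of the difference itself called 133 of 14861 genes (0.895%) between the drug settings, in 93 of them (0.626%) with a smaller value under tazemetostat. That count was 37 to 414 with a library left out in turn, 257 by DESeq2 and 63 in the fit of all 24 libraries. Between the lines it called 502 of 17766 (2.83%), in 212 of them (1.19%) with a larger value in SU-DHL-4. Of the 1158 genes called under DMSO, 42 were called in the former and 251 in the latter.

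The mean level of HLA-B with UTD cells differed between these settings, a difference that was not tested. CPM values were scaled apart for each line. Under tazemetostat it stood at 31.8 ± 3.09 CPM with UTD cells and 502 ± 12.3 CPM with CART19 cells, and in OCI-Ly18 under DMSO at 204 ± 11.2 CPM with UTD cells and 580.0 ± 9.7 CPM with CART19 cells. With 7.83 CPM its level with UTD cells was lowest in SU-DHL-4 under DMSO, while the levels with CART19 cells ran from 361 CPM there to the value in OCI-Ly18. Its log2 fold change was 5.53 ± 0.072 under DMSO against 3.98 ± 0.061 under tazemetostat (difference -1.54 ± 0.097, adjusted p = 5.64e-16) and 1.51 ± 0.059 in OCI-Ly18 (difference 4.01 ± 0.097, adjusted p = 7.31e-32). NLRC5 followed the same order, with 19.7 ± 1.58 CPM with UTD cells and 261 ± 14.1 CPM with CART19 cells under tazemetostat and 137 ± 4.95 CPM with UTD cells and 432 ± 9.16 CPM with CART19 cells in OCI-Ly18, and both differences passed (adjusted p = 1.86e-08 and 9.16e-28). IRF4 and MX2, near or at 0 with UTD cells in SU-DHL-4, stood at 129.6 ± 7.44 CPM with UTD cells and 98.7 ± 5.44 CPM with CART19 cells and at 124 ± 1.47 CPM with UTD cells and 114 ± 2.3 CPM with CART19 cells in OCI-Ly18.

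**Figure D5:**
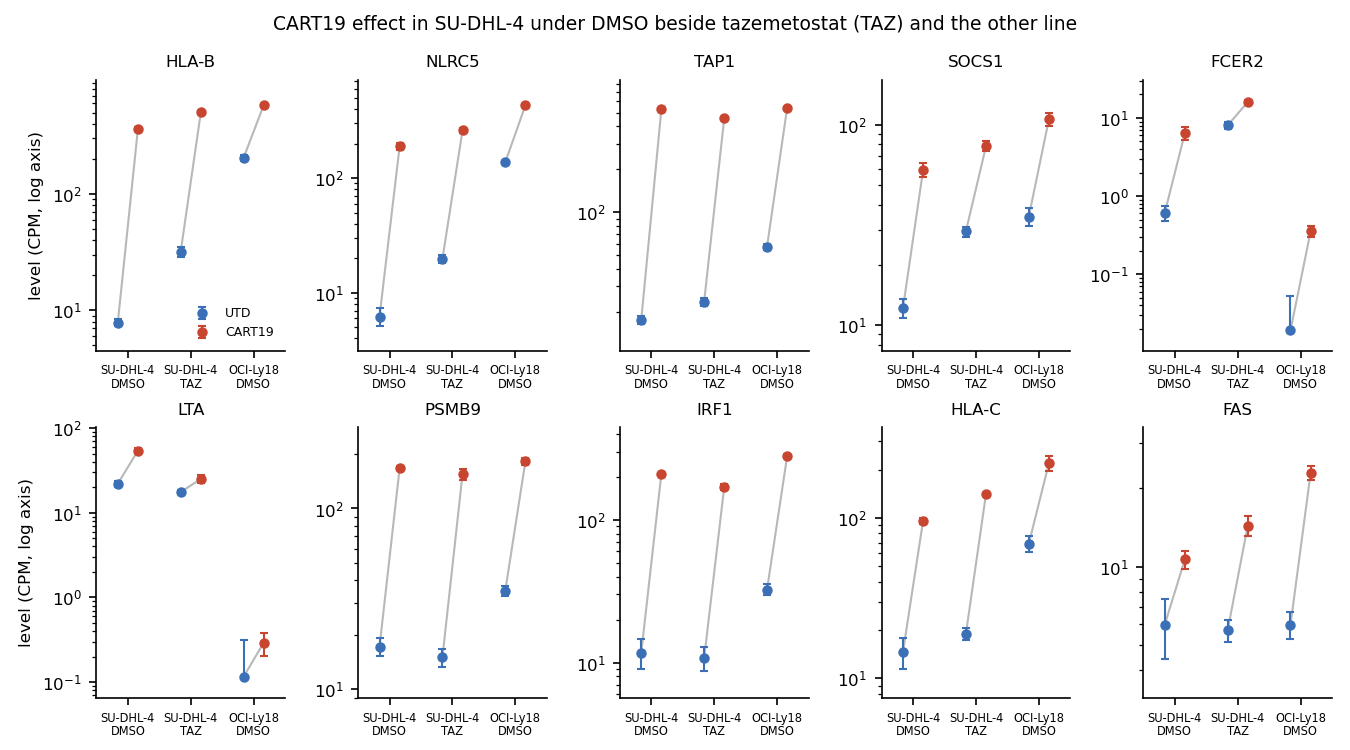
Mean CPM with UTD and with CART19 cells (log axes, bars are SD over 3 libraries) for 10 genes in SU-DHL-4 under DMSO, SU-DHL-4 under tazemetostat and OCI-Ly18 under DMSO. The mean levels of HLA-B and of NLRC5 with UTD cells are lowest in SU-DHL-4 under DMSO. With CART19 cells the levels of each gene in the 3 settings lie closer together on the log axis.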

How the data were processed

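Total RNA of sorted SU-DHL-4 cells was sequenced after preparation with an NEB NEXT Ultra II kit, per the labels. The authors deposited whole-number counts per gene and library, not scaled. Build hg38 and DESeq2 are named in the submitters' processing notes, without versions, and no source used here gives the aligner, the counter or the strand setting. Overlapping and antisense genes may therefore share reads. All 58735 gene IDs match GENCODE release 29, gene lengths are those deposited, and 27 names that a spreadsheet had made dates were looked up again by ID.

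Counts were fitted in edgeR 4.0.16 (R 4.3.3) with TMM scaling, filterByExpr by group and the robust quasi-likelihood F-test. The 12 SU-DHL-4 libraries (4 groups, 14783781 to 19705797 counts, 8 residual degrees of freedom, biological coefficient of variation 0.0729) gave CART19 minus UTD under DMSO and its difference from the same contrast under tazemetostat. All 24 libraries gave the difference from OCI-Ly18. P-values were adjusted by Benjamini-Hochberg over all genes tested and called under 0.05. The script was tested on simulated data. Replicates within each compared group differed by more than sampling noise.

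The 36 gene lists and 5 marker lists came from textbook knowledge, and members, lists and tests were chosen with earlier results of these data known, so the lists carry no test. Named genes are (1) among protein coding genes called, at 5 CPM or more in the higher group and without overlap of replicates, the 15 largest increases and 12 largest decreases, (2) up to 5 called members per list, (3) anchor genes such as CD274 and EZH2, (4) 6 genes per direction for each difference, and (5) 4 per direction of other biotypes. Some genes that this rule names are not reported here. Other named genes, such as list members that did not pass, were chosen after their values were seen. Alternatives were RLE and upper quartile scaling, other filters, DESeq2 1.42.0, limma voom 3.58.1, a replicate block, other sets of libraries, a minimum change and leaving out each library.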

Additional observations from a re-analysis of the deposited data

Results flagged for a closer look

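The CART19 response of SU-DHL-4 under DMSO differed from that under tazemetostat for 133 genes by the test of the difference itself (edgeR, adjusted p under 0.05), a number that ran from 37 to 414 with single libraries left out and was 63 in the fit of all 24 libraries. Among antigen presentation and signalling genes the response was smaller under tazemetostat for HLA-B (difference of log2 fold changes, tazemetostat minus DMSO, -1.54, adjusted p = 5.64e-16), NLRC5 (-1.21, adjusted p = 1.86e-08), TAP1 (-0.628, adjusted p = 5.94e-06), SOCS1 (-0.88, adjusted p = 3.14e-05) and PARP9 (-1.13, adjusted p = 0.0186). FCER2, the gene of CD23, had the most negative difference of the named genes, -2.36 (adjusted p = 7.69e-06), and stood at 8.02 ± 0.894 CPM with UTD cells and 16 ± 0.79 CPM with CART19 cells under tazemetostat. With UTD cells the mean level of each of these 6 genes was higher under tazemetostat than under DMSO, a difference not tested here. HLA-B stood at 31.8 ± 3.09 CPM with UTD cells and 502 ± 12.3 CPM with CART19 cells under tazemetostat.

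Differences of the same kind were found for LTA (-0.774, adjusted p = 0.00137) and the dystrophin gene DMD (-0.952, adjusted p = 0.00117). For MYC the difference was also negative (-0.237, adjusted p = 0.0404), but its change under DMSO did not pass (log2 fold change -0.0669, adjusted p = 0.446). Under tazemetostat MYC was lower with CART19 cells, at 467 ± 21.5 CPM against 577 ± 15 CPM with UTD cells. The 6 largest positive differences were COPS9 (0.61), CERKL (0.553), RPS15 (0.488), MND1 (0.475), ELOB (0.444) and ZNHIT1 (0.441). Leaving out single libraries ended the call for 6 of these 15 genes, with the highest adjusted p at 0.222 for MYC and 0.102 for COPS9 (both without DMSO CART19 replicate 2), 0.139 for MND1 (without DMSO CART19 replicate 3), 0.134 for PARP9 (without tazemetostat UTD replicate 1), 0.0807 for CERKL (without DMSO CART19 replicate 2) and 0.0604 for ZNHIT1 (without tazemetostat CART19 replicate 3).

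The response under DMSO differed from that of OCI-Ly18 for 502 genes. It was larger in SU-DHL-4 for HLA-B (difference of log2 fold changes, SU-DHL-4 minus OCI-Ly18, 4.01), NLRC5 (3.28), TAP1 (1.67), HLA-C (1.05), IRF1 (1.04), PSMB9 (0.903) and SOCS1 (0.67), with adjusted p-values of 7.31e-32 for HLA-B to 0.000751 for HLA-C. It was smaller in SU-DHL-4 for FAS (-1.12, adjusted p = 0.00133). For SERPINB9 the difference was also negative (-0.363, adjusted p = 0.0153), but there SU-DHL-4 showed a decrease (log2 fold change -0.303, adjusted p = 1.25e-05). FAS stood at 5.98 ± 0.697 CPM with UTD cells and 22.9 ± 1.38 CPM with CART19 cells in OCI-Ly18.

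A further group had few or no counts in 1 of the groups, so that the fitted differences are no bounds. On the side of a larger response in SU-DHL-4 these are IFIT5 (7.66), MX2 (6.62), IRF4 (6.03), SAMD9L (5.13), IFIT2 (5.03), XAF1 (4.64) and CD58 (4.57). OCI-Ly18 held MX2 at 124 ± 1.47 CPM with UTD cells and 114 ± 2.3 CPM with CART19 cells, and CD58 at 4.59 ± 1.05 CPM with UTD cells and 4.83 ± 1.13 CPM with CART19 cells. On the other side are FRY (-6.51), PKHD1L1 (-5.09), CXCR5 (-5.03), SLAMF1 (-4.49), NEXN (-4.24) and ILDR1 (-3.92). FRY, a scaffold protein of the NDR kinases, stood at 2.08 ± 0.56 CPM with UTD cells and 77.3 ± 4.32 CPM with CART19 cells in OCI-Ly18 and at 0.303 and 0.126 CPM in SU-DHL-4. Single libraries left out ended the call for 5 of these 22 genes, with adjusted p up to 0.191 for ILDR1 and 0.138 for SERPINB9 (both without OCI-Ly18 UTD replicate 3), 0.159 for PKHD1L1 and 0.147 for SLAMF1 (both without OCI-Ly18 CART19 replicate 3) and 0.137 for XAF1 (without SU-DHL-4 UTD replicate 1).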

How the results depend on the processing

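The 686 increases and 472 decreases stayed within 1.5 times under RLE scaling (651 and 539), upper quartile scaling (650 and 544), no filter (682 and 452), a stricter filter (665 and 464), DESeq2 (656 and 562), limma voom (628 and 390), the 6 compared libraries alone (781 and 524) and all 24 libraries (621 and 459). Tested against a minimum change of 1 log2 unit, 116 genes passed, 115 higher and 1 lower. Leaving out each library gave 820 to 1438 calls, 530 to 835 higher and 259 to 603 lower, the lowest without DMSO UTD replicate 2. The difference between drug settings is less stable: 257 genes by DESeq2, 63 in the fit of all 24 libraries, and 37 to 414 with a library left out, where 10 of 12 libraries moved it by over 1.5 times (70 and 63 without DMSO UTD replicate 1 or 3; 74, 54 and 44 without DMSO CART19 replicate 1, 2 or 3; 66, 75 and 37 without tazemetostat UTD replicate 1, 2 or 3; 414 and 82 without tazemetostat CART19 replicate 2 or 3); the cause was not tested. The difference between lines ranged from 338 to 467 genes with a library left out. Correlations between the deviations of same-numbered replicates were small (-0.0595 to 0.0375). With 3 libraries per group they cannot decide whether the numbers pair the libraries. With the replicate block 1115 genes were called (672 higher, 443 lower), 108 for the drug settings and 434 for the lines.

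Of 207 named genes, 184 were called, and over 4321 values under the alternatives 140 lost the call and 4 gained it. No called gene changed sign, while BCL6, COPS9, EZH2, PKHD1L1 and RPS15, which did not pass, did so under at least 1 alternative. Of the 184, 36 lost the call under at least 1 alternative, 33 of them when a single library was left out. Among them were genes with few counts, such as GZMB, IFNG, CD58, APOL4 and BBC3, and genes with small changes, such as LCK, BANK1 and PFKP. The LTA and RPS15 differences between drug settings were not called in the fit of all 24 libraries. Depth limits what can be said of CD274, IDO1 and PRDM1, with at most 16 counts in a group.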

Other observations

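Butyrophilin genes, whose BTN3A products are sensed by gamma-delta T cells, also rose. BTN3A2 had 4.96, 4.94 and 5.53 CPM in the UTD libraries and 19.4, 20.8 and 24.2 CPM in the CART19 libraries (log2 fold change 2.06 ± 0.14, adjusted p = 5.33e-16). BTN3A1 rose from 4.78 ± 0.278 to 15.4 ± 2.11 CPM (log2 fold change 1.69 ± 0.16) and BTN3A3 from 2.07 ± 0.288 to 11.4 ± 1.19 CPM (2.46 ± 0.19). In their stretch of 111.5 kb on chromosome 6, 4 of 5 tested genes rose. On chromosome 14, 4 of 5 tested genes in a stretch of 30.41 kb rose, namely PSME1, PSME2, RNF31 and IRF9. The other, EMC9, was at 23.4 CPM with UTD cells and 18.8 CPM with CART19 cells and did not pass (log2 fold change -0.32 ± 0.12, adjusted p = 0.12). RNF31, a subunit of the linear ubiquitin ligase, rose from 20.6 ± 0.896 to 31.2 ± 2.08 CPM (log2 fold change 0.60 ± 0.1, adjusted p = 3.24e-05). NCF1, a subunit of the NADPH oxidase, had 253, 270.5 and 231 CPM in the UTD libraries and 458, 476 and 473 CPM in the CART19 libraries (log2 fold change 0.90 ± 0.049, adjusted p = 4.31e-20). NCF1 has near-identical pseudogenes, so its reads may be shared with them.

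Genes of other biotypes moved as well. HCP5, a noncoding RNA of the MHC class I region, had 0.186, 0 and 0.282 CPM in the UTD libraries and 16, 13.6 and 11 CPM in the CART19 libraries. It was nearly absent from the UTD libraries and present in every CART19 library (log2 fold change 6.30 ± 0.29, adjusted p = 5.68e-23). USP30-AS1 had 0.558, 0.677 and 0.339 CPM in the UTD libraries and 7.5, 6.16 and 8.23 CPM in the CART19 libraries (log2 fold change 3.8 ± 0.35, adjusted p = 1.03e-11), and HLA-H, a class I pseudogene whose reads may come from its functional relatives, had 1.68, 1.02 and 1.07 CPM in the UTD libraries and 4.78, 8.51 and 3.43 CPM in the CART19 libraries (log2 fold change 2.15 ± 0.33, adjusted p = 3.02e-06). CMAHP, a pseudogene, rose by 1.99 ± 0.31. The decreases of other biotypes were small: MIR600HG fell from 33 ± 1.37 to 25.4 ± 1.55 CPM (log2 fold change -0.38 ± 0.092, adjusted p = 0.00425). LINC00487, a noncoding RNA of germinal centre cells, fell from 34.9 ± 2.7 to 26.9 ± 3 CPM, a call lost without CART19 replicate 3 (adjusted p = 0.0797). The calls of TP73-AS1 and AC125257.1 were lost with 4 and 5 of the single libraries left out (adjusted p up to 0.138 and 0.281).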
